A study of Mus musculus with 6 samples.

Results

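The carbonic anhydrase genes Car2, Car3, Car4, Car6, Car7, Car8, Car9, Car11, Car12 and Car13 were examined in MLE15 cells, a mouse lung epithelial line grown from lung tumors of mice in which the human surfactant protein C promoter drives a viral oncogene, the SV40 large T antigen. These 10 genes, of 19938 with a symbol of their own on the array, were named with earlier results of the same comparison known. Their fold changes and p-values, taken from a fit over the whole array, are therefore a description of these arrays and not independent evidence. Where a gene has several transcript clusters (sets of array probes that stand for a gene), 1 was to be selected on the highest mean over the 6 arrays. Each had 1 transcript cluster, so nothing was selected. Total RNA of 3 lines transduced with a lentivirus mix of shRNAs against Nkx2-1 and of 3 lines transduced with the empty pLKO.1 vector was put on Affymetrix arrays of the type Mouse Gene 1.0 ST, 1 array per line. All 6 lines were selected with puromycin and share the MLE15 background. The labels give 48 h for all 6 samples, while the study's methods describe stable lines that were transduced independently. The labels also name the control an empty vector, while the paper names it a non-silencing control. Values are log2 values from Robust Multi-Array Analysis (RMA) as the authors deposited them.

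Carbonic anhydrases are zinc enzymes that interconvert carbon dioxide and water with bicarbonate and a proton. They differ mainly in where they work. Car2, Car3, Car7 and Car13 are cytosolic, Car4 is anchored to the outer cell surface by a lipid, Car9 and Car12 span the membrane with an extracellular active site, and Car6 is the secreted form, best known from saliva. Car8 and Car11 are carbonic anhydrase related proteins that lack catalytic activity. In the lung the enzymes are known for carbon dioxide exchange and for control of pH and of the liquid that covers the epithelium.

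Nkx2-1, the targeted gene, measured 7.91, 7.98 and 7.83 on the log2 scale in the 3 Nkx2-1-shRNA lines, against 8.61, 8.61 and 8.59 in the empty vector lines. The groups did not overlap, and the mRNA stood at 61.8% of the empty vector level (limma, adjusted p = 0.00155; 0.0550 with a test for unequal variances). Across transcript clusters, arrays of the same group correlated at 0.991 to 0.994 and arrays of different groups at 0.979 to 0.983, so no array stood apart. A level was called above background when its group mean exceeded 4.35, the level under which 95% of 1245 transcript clusters for olfactory, vomeronasal and taste receptors lay. Of 10 markers of alveolar type II cells, 7 exceeded this limit in the Nkx2-1-shRNA lines and 8 in the empty vector lines. Of the 10, 2 rose (Sftpd by 0.44 and Napsa by 0.58), 4 fell (Nkx2-1, Sftpa1, Abca3 and Sftpc) and 4 did not pass. Sftpc stood at 4.08 ± 0.22 in the Nkx2-1-shRNA lines against 7.73 ± 0.45 in the empty vector lines (SD, n = 3 each), and Sftpb, which did not pass, differed by 0.14. Lamp3 and Slc34a2, also markers of these cells, were under the limit in both groups. In RNA of whole cultures, fewer cells of a type and less RNA per cell cannot be told apart.

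Of the 10 members, Car6 rose, none fell, and 9 did not pass the test (limma, Benjamini-Hochberg adjusted p under 0.05 over 35557 transcript clusters). Over the whole array 16.8% of transcript clusters passed, 7.61% higher and 9.24% lower, and among those above background 24.3% passed. With median centring the array had 3484 higher and 2376 lower, against 2705 and 3284 as deposited. At the threshold of the study's methods, applied to the limma fit, Car6 also passed, as did 1.26% of transcript clusters. With the methods' t-test Car6 did not reach that threshold (adjusted p = 0.00386), and no transcript cluster did. The median log2 fold change of the members was 0.025, beside −0.029 over all transcript clusters. The groups did not overlap for 3 members, Car6, Car8 and Car13, where this held for 34.9% of all transcript clusters. Only Car6, Car7, Car11 and Car13 were above background; the means of the other 6 lay under the limit in both groups. The 95% interval of Car6 ran from 3.61 to 4.21, while those of the other 9 members all lay between −0.44 and 0.44.

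**Figure D1:**
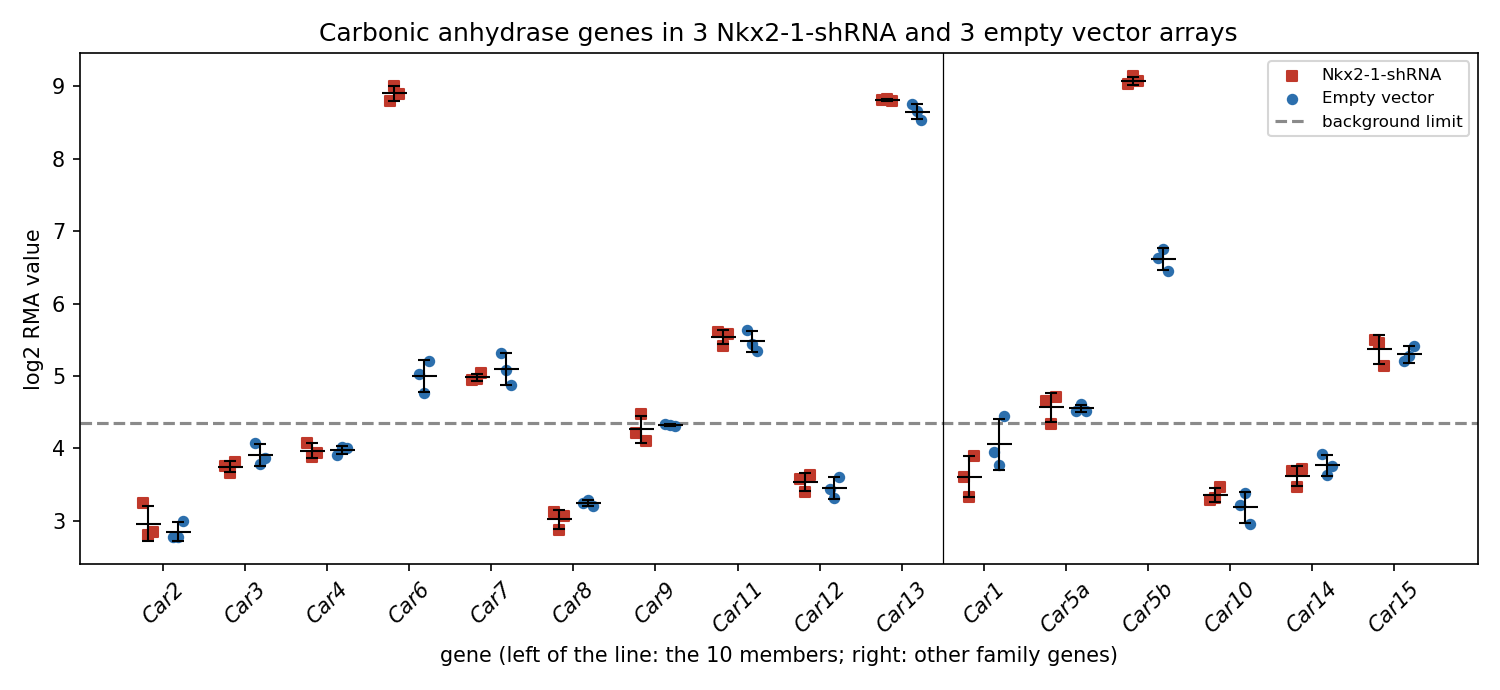
Log2 RMA values (vertical axis) of the 10 carbonic anhydrase genes and, right of the vertical line, of 6 further genes of the family (horizontal axis), with 3 Nkx2-1-shRNA arrays as red squares on the left and 3 empty vector arrays as blue circles on the right of each gene. Black bars are the mean and SD of a group and a dashed line marks 4.35, the background limit. Car6 and Car5b are the genes whose groups stand far apart, at means of 8.90 against 4.99 and of 9.08 against 6.61.

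Car6, which encodes the secreted enzyme (transcript cluster 10518751), stood at 8.80, 9.01 and 8.90 in the Nkx2-1-shRNA lines on the log2 scale, against 5.03, 4.76 and 5.20 in the empty vector lines. Every Nkx2-1-shRNA line was high and every empty vector line low, with no overlap. The means were 8.90 ± 0.10 and 4.99 ± 0.22 (SD, n = 3 each), which differ by 3.91 (SE 0.13; limma adjusted p = 3.4e-05) or 15.1-fold. Among genes with a symbol of their own this was the rise of rank 3. An exact permutation test of 3 lines against 3, two-sided, cannot go below p = 0.1, the value it gave. The empty vector mean lay 0.65 above the background limit, so the fold was read against a level close to background. Without any 1 array the log2 fold change ran from 3.79 to 4.01.

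The RefSeq promoter window of Car6 is printed because Car6 is the member that rose, and that of Car5b, a mitochondrial carbonic anhydrase outside the 10, because it was the only other gene of the family that rose. Each window holds 250 bases before the annotated start and 50 after it, 5′ to 3′ on the strand of the gene (build GRCm38.p6; Car6 at chr4:150201086-150201385, minus strand; Car5b at chrX:164027961-164028260, minus strand). Capitals mark CAAG and its reverse complement CTTG, the core of the Nkx2-1 consensus site.
Car6: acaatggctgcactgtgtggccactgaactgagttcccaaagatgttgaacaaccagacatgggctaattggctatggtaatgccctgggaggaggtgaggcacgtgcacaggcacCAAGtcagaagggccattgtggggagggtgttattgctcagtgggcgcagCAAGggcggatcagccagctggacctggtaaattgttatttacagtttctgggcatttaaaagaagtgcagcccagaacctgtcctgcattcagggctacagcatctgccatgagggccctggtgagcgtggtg
Car5b: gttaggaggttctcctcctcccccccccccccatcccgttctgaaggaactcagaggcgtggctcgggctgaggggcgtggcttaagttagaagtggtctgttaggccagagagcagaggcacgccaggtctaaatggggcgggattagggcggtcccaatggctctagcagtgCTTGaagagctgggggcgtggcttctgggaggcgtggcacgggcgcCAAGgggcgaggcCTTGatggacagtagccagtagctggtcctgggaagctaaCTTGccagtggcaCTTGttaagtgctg
The window of Car6 held 2 matches, 134 and 84 bases before the start. The window of Car5b held 5, of which the nearest before the start was at 17 bases. At least 1 match on either strand was present in 90.6% of 32841 promoter windows of the same length, and the median number was 2. Of the 10 members 6 had a promoter window, 9 windows in all, and each of the 9 held a match. A match describes letters and is no evidence of binding.

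The genes beside Car6 showed far smaller differences. Among all transcript clusters above background 24.3% passed. Of the 20 nearest genes above background, 10 on each side in the RefSeq gene order, 3 rose, 2 fell and 15 did not pass, with a median log2 fold change of 0.023. Their values ran from −0.54 (Rere, which encodes a transcriptional corepressor) to 0.73 (Spsb1, a gene of a ubiquitin ligase adaptor). The nearest on either side were the sugar transporter gene Slc2a7, at −0.08, and Rere.

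**Figure D2:**
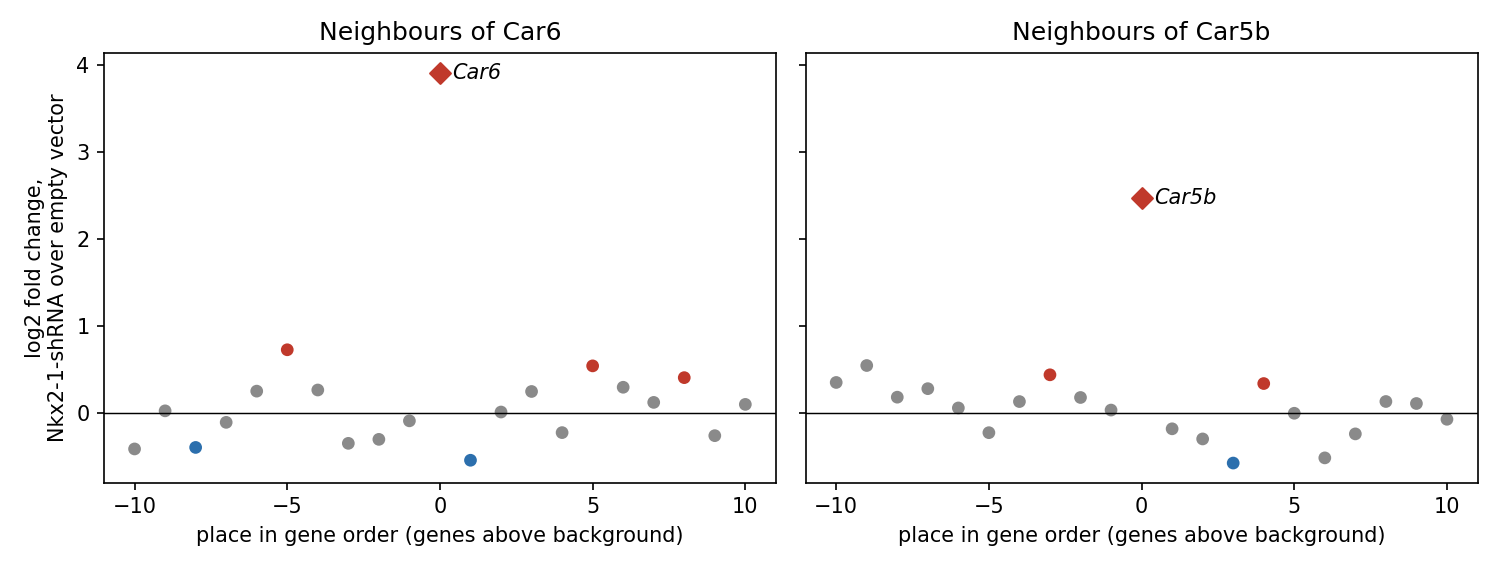
Log2 fold change, Nkx2-1-shRNA over empty vector (vertical axis), of the 10 genes above background on each side of Car6 (left panel) and of Car5b (right panel), by their place in the gene order (horizontal axis). Diamonds are Car6 at 3.91 and Car5b at 2.47, red and blue circles rose and fell at an adjusted p under 0.05, grey circles did not pass, and the neighbours lie between −0.57 and 0.73.

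Among the cytosolic enzymes, only Car13 was clearly measured. Its log2 level was 8.81, 8.82 and 8.80 across the Nkx2-1-shRNA lines, against 8.75, 8.66 and 8.54 in the empty vector lines. The Nkx2-1-shRNA lines all lay above the empty vector lines, but by little, a log2 fold change of 0.16 (95% interval −0.03 to 0.36, adjusted p = 0.253). Changes larger than 0.36 on this scale lie outside the interval. Car7, an isoform known from brain and muscle, lay 0.64 above the background limit in the Nkx2-1-shRNA lines and 0.75 above it in the empty vector lines. It measured 4.95, 4.96 and 5.04 across the Nkx2-1-shRNA lines, within the range of the empty vector lines at 5.32, 5.08 and 4.88 (log2 fold change −0.11, 95% interval −0.40 to 0.18, adjusted p = 0.621).

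Car2, the widespread and very fast enzyme of red cells, kidney and many epithelia, had values of 3.24, 2.80 and 2.84 across the Nkx2-1-shRNA lines, against 2.77, 2.78 and 3.00 in the empty vector lines. Car3, an isoform abundant in muscle and fat, had 3.76, 3.66 and 3.81 across the Nkx2-1-shRNA lines, against 4.08, 3.78 and 3.87 in the empty vector lines. Both genes were under the background limit on all 6 arrays and their groups overlapped (adjusted p = 0.676 and 0.333). Car2, Car3 and Car13 are neighbours on chromosome 3, with Car1 between Car13 and Car3. The 20 nearest genes above background around this cluster, the same for all 3 members, had a median log2 fold change of 0.156, with 3 higher and 2 lower. They included Fabp4, a fatty acid binding protein gene, at −2.02 and Chmp4c, a gene of membrane scission, at 0.90.

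Of the members bound to the cell surface, Car4, Car9 and Car12, none was above background. Car4, the surface enzyme known from lung capillaries and from the alveolar wall, had 4.08, 3.88 and 3.93 across the Nkx2-1-shRNA lines, against 3.91, 4.02 and 4.00 in the empty vector lines. The means differed by −0.008 (95% interval −0.21 to 0.20, adjusted p = 0.968), and the sign changed with median centring. Car12, which in humans is widespread in epithelia and in tumors, had 3.58, 3.39 and 3.63 across the Nkx2-1-shRNA lines, against 3.44, 3.31 and 3.61 in the empty vector lines (log2 fold change 0.08, 95% interval −0.18 to 0.35, adjusted p = 0.696). The groups overlapped for both genes.

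Car9, a target of hypoxia-inducible factors, had 4.21, 4.47 and 4.10 across the Nkx2-1-shRNA lines, against 4.34, 4.32 and 4.31 in the empty vector lines. A single array, Nkx2-1-shRNA replicate 2, exceeded the background limit, and the groups overlapped (log2 fold change −0.06, 95% interval −0.32 to 0.20, adjusted p = 0.782). In the RefSeq annotation Car9 overlaps Arhgef39 and the tropomyosin gene Tpm2, and Tpm2 was higher by 0.47 (adjusted p = 0.0188). Its promoter window is printed because it holds the core of the hypoxia response element (GRCm38.p6, chr4:43506776-43507075, plus strand). Capitals mark the match to ACGTG, which lies on the opposite strand and reads CACGT here.
Car9: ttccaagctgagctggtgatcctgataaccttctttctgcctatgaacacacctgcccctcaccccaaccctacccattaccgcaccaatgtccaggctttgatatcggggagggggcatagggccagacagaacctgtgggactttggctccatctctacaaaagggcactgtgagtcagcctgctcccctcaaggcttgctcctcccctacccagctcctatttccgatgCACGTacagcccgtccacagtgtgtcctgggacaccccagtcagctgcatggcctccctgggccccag
The match began 18 bases before the start. ACGTG on either strand was present in 19.6% of the 32841 windows and in 3 of the 9 member windows, those of Car4, Car6 and Car9. In the window of Car4 it began 3 bases after the start, also as CACGT. In the window of Car6 it occurred as the palindrome CACGTG, 149 bases before the start, which counts once on each strand.

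Car8 and Car11 encode the members without catalytic activity. Car8 binds a receptor for inositol trisphosphate in the cerebellum. It had 3.12, 2.87 and 3.06 across the Nkx2-1-shRNA lines, against 3.25, 3.28 and 3.20 in the empty vector lines. The groups did not overlap, yet all 6 values were under the background limit and the difference did not pass (log2 fold change −0.23, 95% interval −0.44 to −0.01, adjusted p = 0.154). Car11, known mainly from brain, was above background in both groups, with 5.60, 5.42 and 5.58 across the Nkx2-1-shRNA lines, against 5.64, 5.44 and 5.35 in the empty vector lines. Its groups overlapped (log2 fold change 0.06, 95% interval −0.19 to 0.30, adjusted p = 0.779). Neighbor counts stand beside a share of 24.3% that passed among all transcript clusters above background. Around Car11 9 of 20 neighbors rose and 1 fell, among them the clock output gene Dbp beside it at 0.85 and the hormone gene Fgf21 at 1.67. Of 20 neighbors of each of the remaining members, 7 rose and 1 fell around Car8, 4 rose and 6 fell around Car7, 1 rose and 4 fell around Car4, 1 rose and 1 fell around Car9, and 3 rose and 4 fell around Car12. Beside Car7, whose own groups overlapped, the phosphatase gene Pdp2 stood at −0.89 (adjusted p = 0.00355) and Nae1, of a ubiquitin-like conjugation pathway, at 0.57 (adjusted p = 0.0257). Beside Car8, the vesicle transport gene Rab2a stood at 0.62 (adjusted p = 0.0204).

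**Figure D3:**
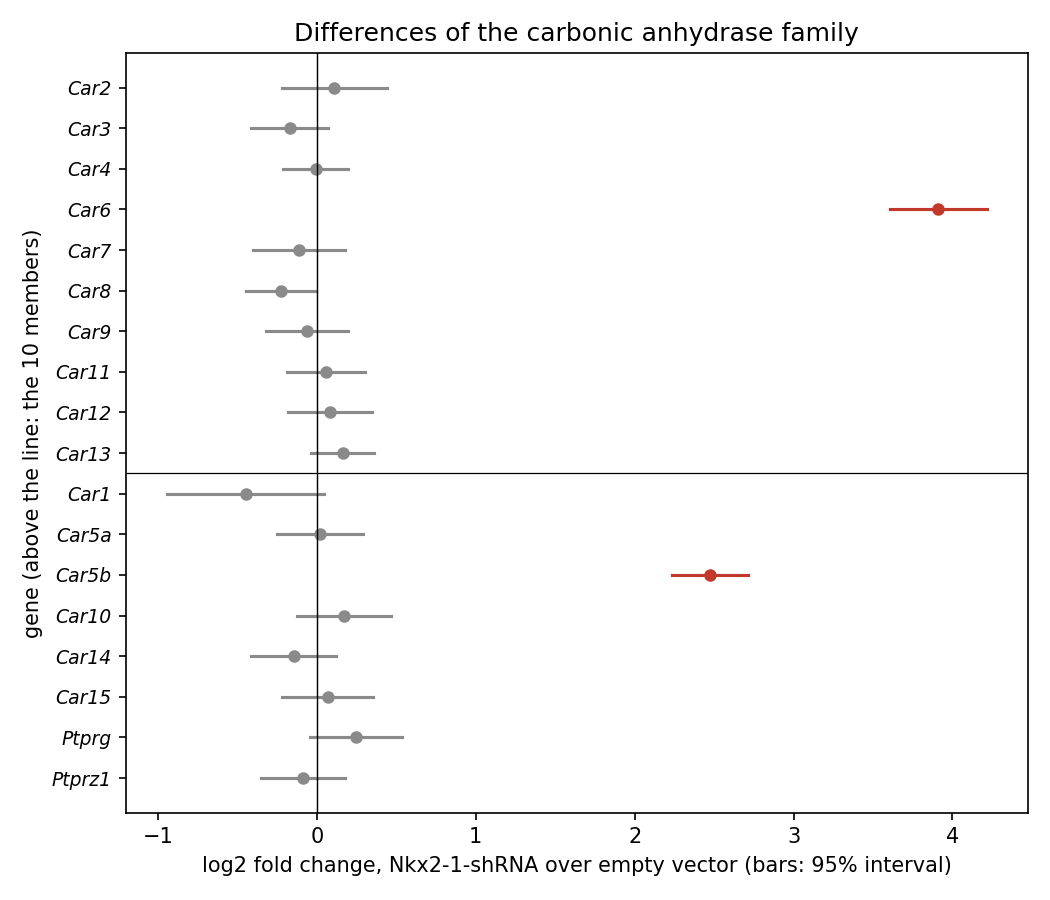
Log2 fold change, Nkx2-1-shRNA over empty vector (horizontal axis; points, with 95% intervals as bars), of the 10 members above the line and of 8 further genes of the family below it (vertical axis). Red marks an adjusted p under 0.05, which Car6 at 3.91 and Car5b at 2.47 reached, and the intervals of the other 16 genes reach or lie close to 0.

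A further 8 genes of the family were read from a list that holds the remaining Car genes and the receptor phosphatases Ptprg and Ptprz1, which carry a carbonic anhydrase domain. Of these, 1 rose, none fell and 7 did not pass. Car5b, which encodes an enzyme of the mitochondrial matrix, had 9.03, 9.14 and 9.07 across the Nkx2-1-shRNA lines, against 6.63, 6.75 and 6.45 in the empty vector lines. The groups were wide apart, differing by 2.47 (SE 0.10; adjusted p = 6.4e-05) or 5.55-fold, and both were above background. Car5a, the other mitochondrial enzyme and known mainly from liver, stood at 4.57 ± 0.20 in the Nkx2-1-shRNA lines and 4.55 ± 0.05 in the empty vector lines (SD, n = 3 each; adjusted p = 0.934). Of 20 neighbors of Car5b on the X chromosome, 2 rose, 1 fell and 17 did not pass, with a median of 0.088. Car15, a lipid-anchored enzyme, was above background in both groups (log2 fold change 0.07, adjusted p = 0.775), while the transmembrane enzyme gene Car14 was not (−0.15, adjusted p = 0.458).

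Bicarbonate made by these enzymes crosses membranes through transporters. From a list of genes of the Slc4 and Slc26 families with Cftr, 15 were measured. Membership of a family does not show that a product carries bicarbonate. The groups of genes that follow were chosen with earlier results of these arrays known and are described by counts. Over the whole array 16.8% of transcript clusters passed, and 24.3% of those above background. Of the 15, 1 rose, 3 fell and 11 did not pass, with a median log2 fold change of 0.009. Slc4a4, the sodium bicarbonate cotransporter gene, rose to 9.40 ± 0.16 in the Nkx2-1-shRNA lines, against 8.28 ± 0.18 in the empty vector lines (SD, n = 3 each), higher by 1.12 (SE 0.13; adjusted p = 0.00169). The anion transporter gene Slc26a9, known from airway and stomach, fell by 0.82, the sodium-driven exchanger gene Slc4a8 fell by 0.64 and Slc4a11 fell by 0.60. Cftr, the chloride and bicarbonate channel gene, lay under the background limit at 2.59 ± 0.06 in the Nkx2-1-shRNA lines and 2.55 ± 0.02 in the empty vector lines.

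Of 10 measured genes for proton and lactate transport, 1 rose, 2 fell and 7 did not pass (median −0.022). The proton channel gene Hvcn1 rose by 0.65 (adjusted p = 0.0132; 0.0606 with the methods' t-test), while the exchanger gene Slc9a8 and the scaffold gene Slc9a3r1 fell by 0.46 and 0.36. The call of Slc9a8 was lost without Nkx2-1-shRNA replicate 1, empty vector replicate 1 or empty vector replicate 2 (adjusted p from 0.0515 to 0.0657), and that of Slc9a3r1 without any 1 array other than Nkx2-1-shRNA replicate 3 (adjusted p from 0.0535 to 0.0912). With a test for unequal variances none of the 10 passed. The lactate transporter gene Slc16a1 had a log2 fold change of 0.15 and its chaperone gene Bsg one of 0.26, neither past the test. Of 7 water and gas channels, Aqp3, a water and glycerol channel gene of basal epithelial cells, rose by 0.82 (adjusted p = 0.00377; 0.0573 with a test for unequal variances) and the other 6 did not pass. Aqp5, the water channel gene of alveolar type I cells, differed by −0.046 (adjusted p = 0.850), with overlapping groups.

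Car9 is usually read as a marker of hypoxia, and 16 other genes of that response and of its control were set beside it. Of these, 11 rose, 1 fell and 4 did not pass, with a median of 0.589, while Car9 had −0.06. The 4 that did not pass were Hif1a, Epas1, Arnt and Vhl, genes of the control of the response. With a test for unequal variances 5 of the 16 passed, and Bnip3 and Slc2a1 did not (adjusted p = 0.0583 and 0.0605). The largest rises were those of the stress gene Ndrg1 (3.18), Ankrd37 (2.12), the mitophagy gene Bnip3 (1.66) and the glucose transporter gene Slc2a1 (1.32). The mRNA of Hif1a, which encodes the oxygen-regulated subunit of the factor, differed by 0.03 (adjusted p = 0.829). Protein of this gene was not measured. The prolyl hydroxylase gene Egln3, itself a hypoxia target, fell by 0.97 to 4.44 in the Nkx2-1-shRNA lines, 0.10 above the background limit. Egln1, the other prolyl hydroxylase gene of the list, rose by 0.99 (limma adjusted p = 0.00177).

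Under stress, a short form of the Car6 mRNA has been described in mouse cells as a target of the transcription factor encoded by Ddit3. Car6 had 1 transcript cluster, whose single value does not tell the forms apart. Which form its probes read was not examined. Ddit3 had 6.81 ± 0.11 in the Nkx2-1-shRNA lines and 6.11 ± 0.03 in the empty vector lines (SD, n = 3 each), higher by 0.70 (SE 0.08; adjusted p = 0.00234; 0.0678 with a test for unequal variances). Of 11 genes of this stress response including Ddit3, 8 rose, none fell and 3 did not pass (median 0.656). The largest rises were those of the pseudokinase gene Trib3 (1.86), the glutathione-degrading gene Chac1 (1.43), Atf3 (0.86) and Ppp1r15a (0.75), while the chaperone gene Hspa5 had 0.08 and did not pass (adjusted p = 0.513). With a test for unequal variances 5 of the 11 passed, and Trib3 did not (adjusted p = 0.0662). The part of these genes in the Car6 difference was not tested.

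Of the 3 inositol trisphosphate receptor genes, 2 were measured. Itpr1 had no transcript cluster of its own, so the arrays say nothing about it. Itpr3 rose by 0.80 (adjusted p = 7.3e-04), and Itpr2, close to the background limit, fell by 0.36 (adjusted p = 0.0459). Without any 1 array the call of Itpr2 was lost (adjusted p from 0.0506 to 0.133).

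**Figure D4:**
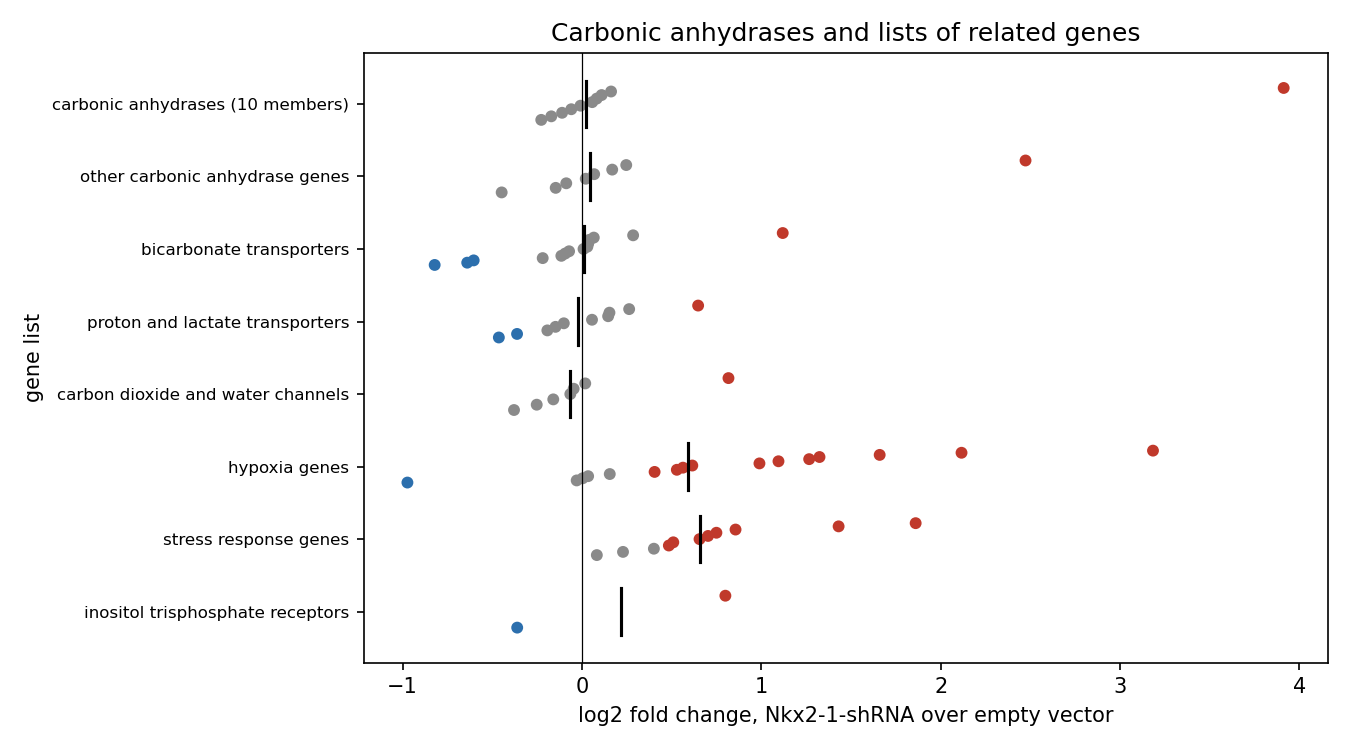
Log2 fold change, Nkx2-1-shRNA over empty vector (horizontal axis), of the 10 members and of 7 lists of related genes (vertical axis), 1 point per gene, with the median of each list as a black bar. Red marks genes that rose and blue those that fell (adjusted p under 0.05); the median of the members is 0.025, against 0.589 for the hypoxia genes and 0.656 for the stress response genes.

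Markers of several cell types, some of them known for abundant carbonic anhydrase, were examined beside the members. Of 6 markers of serous salivary cells, the usual source of the secreted enzyme, none exceeded the limit in the Nkx2-1-shRNA lines and 1 did in the empty vector lines, and none passed the test. Their summed level, on the linear scale, was 70.2 to 75.8 in the Nkx2-1-shRNA lines and 69.8 to 76.7 in the empty vector lines. Of 5 measured erythroid markers none passed, with sums of 101.6 to 112.9 in the Nkx2-1-shRNA lines and 104.6 to 125.6 in the empty vector lines. Of 8 gastric markers 1 fell, Gkn2, and the sums were 202.4 to 210.3 in the Nkx2-1-shRNA lines against 303.9 to 356.5 in the empty vector lines. Sums of 4 airway secretory markers were 127.3 to 151.8 in the Nkx2-1-shRNA lines against 3504 to 4427 in the empty vector lines, carried by Bpifa1, which fell by 5.23 (adjusted p = 2.8e-05) while the other 3 did not pass, with Scgb1a1 and Scgb3a2 under the limit in both groups. Sums of 6 alveolar type I markers were 1310 to 1416 in the Nkx2-1-shRNA lines against 1041 to 1074 in the empty vector lines, with 2 markers higher. Those of 6 endothelial markers were 156.5 to 172.1 in the Nkx2-1-shRNA lines against 182.1 to 193.0 in the empty vector lines. Of these, Vwf rose by 0.41 (adjusted p = 0.025), Tek fell by 2.00 (adjusted p = 4.1e-04) and 4 did not pass, with Pecam1, Cdh5 and Kdr under the limit in both groups. Of 7 fibroblast markers none passed, with sums of 212.2 to 226.6 in the Nkx2-1-shRNA lines against 201.2 to 219.4 in the empty vector lines, and of 6 leukocyte markers none, with 179.8 to 199.2 in the Nkx2-1-shRNA lines against 181.7 to 222.5 in the empty vector lines. The part of these marker differences in the Car6 result was not tested.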

How the data were processed

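Total RNA of 3 Nkx2-1-shRNA and 3 empty vector MLE15 lines was hybridized to Mouse Gene 1.0 ST arrays. The authors ran RMA in Affymetrix Expression Console 1.1, which corrects background, equalizes the distributions of the arrays by quantiles and combines probes into transcript clusters. The deposited log2 values of 35557 transcript clusters were taken unchanged. Their medians still differed by group, at 5.1, 5.1 and 5.14 in the Nkx2-1-shRNA lines against 5.2, 5.18 and 5.21 in the empty vector lines. Precision is limited by the number of arrays, 6, and where lines were not separate transductions p-values measure only the spread between these samples. The median SD within a group was 0.134. RMA draws low values toward a common floor, so changes of genes near background are understated.

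Differences were fitted with limma 3.58.1 under R 4.3.3 (lmFit, then eBayes; 4 residual and 2.86 prior degrees of freedom) over all transcript clusters, with Benjamini-Hochberg adjustment over all of them, and a gene was called at an adjusted p under 0.05. The study's threshold asks for a log2 fold change beyond 0.6 and an adjusted p under 0.0005. The fit was tested on simulated data. Gene symbols came from the platform annotation; 21789 transcript clusters carry 1 symbol. Neighbors were taken in the RefSeq gene order of GRCm38.p6, a build that the array files do not name. Coordinates are therefore given only for the printed promoter windows. Promoter windows came from RefSeq. Protein sequences, planned for comparison, were not used here. Same-numbered lines of both groups are not said to be paired, and their deviations from the group means correlated at 0.058, 0.136 and −0.034.

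The members and lists were chosen with earlier results of these data known. All 10 members are named, of each list up to 4 genes with the largest change past the test and its best known gene where measured, and the nearest neighbors; other genes were named after their values were seen. Some genes of the lists are not analysed here. Alternatives were the methods' t-test, unequal variances, array weights, a trended and robust prior, repeated quantile normalization and median centring. Others were restriction to transcript clusters with 1 symbol, to those above background and to those above the median level. Further ones were the replicate number as a block, each array left out and the study's threshold. The last were the 90th percentile for background and 5 neighbors on each side. Values were not averaged over several transcript clusters of a gene, as each member has 1.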

Additional observations from a re-analysis of the deposited data

How the results depend on the processing

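At an adjusted p under 0.05 Car6 was called under every alternative fit and no other member under any, with a log2 fold change of 3.79 to 4.01 and an adjusted p of 2.0e-08 to 0.0209, the last when variances were taken as unequal. Of 157 values of the 10 members under the alternatives, 145 kept their direction and their side of the threshold. Of the 157, 1 value per member repeats the main fit, as each has 1 transcript cluster. Fits that alter only the test, the block or the set of transcript clusters keep the log2 fold change, so direction could not change there. At the study's threshold of 0.0005 Car6 passed in the limma fit, but not with the methods' t-test (adjusted p = 0.00386), with unequal variances, with the replicate block, or without Nkx2-1-shRNA replicate 2 (5.4e-04) or 3 (5.7e-04). By the methods' t-test 0 transcript clusters passed it, while 4177 were higher and 5331 lower at an unadjusted p under 0.05. In the limma fit 448 passed it over all transcript clusters. Restricted to transcript clusters with 1 symbol, the limma fit gave 906 higher and 651 lower at that threshold. The paper reports more genes at this threshold than the limma fit over all transcript clusters gave here. Of the 157 values the other 12, none past the test, changed sign near 0. Car4 had 0.015 with array weights, 0.038 with quantile normalization and 0.072 with median centring, and Car9 0.021 with median centring. Without single arrays Car2 ran from −0.030 to 0.19, Car4 from −0.068 to 0.036, Car7 from −0.22 to 0.0041, Car9 from −0.16 to 0.021, Car11 from −0.0029 to 0.14 and Aqp5 from −0.13 to 0.042. Aqp5 had 0.034 with median centring.

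Over the whole array 5989 transcript clusters passed, against 1592 with a test for unequal variances, 448 at the study's threshold and 3505 to 4975 without single arrays, with 3505 without Nkx2-1-shRNA replicate 1 and 3939 without Nkx2-1-shRNA replicate 2. Of the 7 lists 31 genes passed, against 16 with a test for unequal variances and 24 to 28 without single arrays. The replicate numbers share no stated origin. With the replicate number as a block, 5044 transcript clusters passed, Car6 kept its call (adjusted p = 0.00177) and so did Car5b (adjusted p = 0.00177), while Slc9a3r1 (adjusted p = 0.0516) and Itpr2 (adjusted p = 0.0728) lost theirs and 2 of the 8 further carbonic anhydrase genes passed, against 1. With the 90th percentile as the background limit (3.968), Car9 was also above background in both groups. Car4 exceeded that limit only in the empty vector lines, at 3.973 against 3.965 in the Nkx2-1-shRNA lines. With 5 neighbors on each side the median log2 fold change beside Car6 was −0.034 and beside Car5b 0.02. For members under the background limit the arrays give no firm level.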
